A study of Rattus norvegicus with 6 samples.

Results

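Wt1, Gata4 and Gata6 encode transcription factors of the visceral mesoderm and its derivatives, and they are 3 of the 10411 genes that a probe set of the Affymetrix RAE230A array names alone. They are read by 6 of its 15923 probe sets, 2 for each gene. The members are the probe sets that the platform annotation assigns to these 3 gene symbols. The 3 genes were picked with their blood and marrow values already known, so the values below describe the members and no test is given for them. The 6 arrays hold RNA of cultured rat mesenchymal stromal cells, which are adherent, fibroblast-like cells grown out of the mononuclear fraction of a tissue. From each of 3 GFP transgenic rats, labelled S4, S5 and S6, 1 culture came from peripheral blood and 1 from bone marrow. Both sources were put through a density gradient, grown in the same medium with fetal bovine serum and harvested at passage 2. All 6 cultures carry the GFP transgene. The labels and protocols do not say which promoter drives it, nor the age or sex of the animals.

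WT1 is a zinc-finger factor made in the mesothelium, the epicardium, the developing gonad and the kidney podocyte, where it can switch genes on or off depending on its partners and splice form. GATA4 and GATA6 are zinc-finger factors of the heart, the visceral endoderm, the gonad and the lateral mesoderm, which bind DNA elements with a GATA core and share many partners. The comparison of blood and marrow cultures asks how stromal cells of the 2 origins differ when grown in the same way.

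Signals are given on the log2 scale as deposited, where a difference of 1 is a doubling. Array medians lay between 8.12 and 8.22, the median of the whole table was 8.18 and its 25th percentile 6.97, and these levels serve as landmarks because no detection calls were used. In the list of stromal genes 11 of 12 passed the filter on signal, led by Fn1, Col1a2 and Vim. The filter asks that all 3 blood arrays or all 3 marrow arrays exceed the table's median. The list's 1 call was Eng, or CD105, which rose in blood cultures by 1.62 ± 0.23 (SE, adjusted p = 0.0235 in limma). The gene left out was Thy1, or CD90, a defining stromal marker, which varied between rats. On the brighter of its 2 probe sets the blood cultures of rats S4, S5 and S6 read 7.02, 9.42 and 7.41 and their marrow cultures 9.38, 7.68 and 9.84. Blood minus marrow was -2.36 and -2.43 in rats S4 and S6 and 1.74 in rat S5. Of the leukocyte list, 9 of 12 genes were on the array and 5 of these passed the filter. The summed linear signal of those 9 was 5985 to 7012 in blood and 3377 to 6615 in marrow cultures, so the groups overlapped. Within rats, 4 of the 5 tested leukocyte genes had a mean difference above 0, and the median over the 5 was 0.47. Laptm5, a lysosomal membrane protein of blood cells picked after its values were seen, was higher in blood cultures by 1.38, 0.57 and 0.06 in the 3 rats. None of the 5 passed in limma (1 at an unadjusted p under 0.05), and their part in the members' values was not tested. Blood arrays were scanned directly before the marrow array of the same rat, so source and scan order cannot be told apart. Rats S4 and S5 were run on fluidics station 1 and rat S6 on station 2. Within the stations, blood arrays of rats S4, S5 and S6 were on modules 1, 3 and 1 and marrow arrays on modules 2, 4 and 2. Source and module therefore cannot be told apart either. Bulk RNA does not tell more cells with a transcript from more transcript per cell.

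Of the 3 members, the RefSeq promoter table (build GRCr8) holds Wt1 and Gata6. The Wt1 window starts inside the annotated gene and is not printed. The 250 bases upstream of the annotated start of Gata6, chr18:2460659-2460908 on the plus strand, are shown because this gene's start is the one that coincides with the annotated gene start. No part is capitalised, since none of the motifs searched occurred in it.
Gata6 upstream: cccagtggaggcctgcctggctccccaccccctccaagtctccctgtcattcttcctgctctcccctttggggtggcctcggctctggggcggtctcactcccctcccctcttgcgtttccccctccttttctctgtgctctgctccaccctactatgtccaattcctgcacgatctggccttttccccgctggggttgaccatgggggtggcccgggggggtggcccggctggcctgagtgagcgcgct
The window is rich in G and C, at 66.0% against a median of 51.2% over 33469 upstream windows of the same length. The motifs were the GATA elements AGATAA and TGATAA and the GC-rich elements GCGTGGGNG, GCGGGGGCG and TCCTCCTCC, on both strands, with N for any base. They occurred in 10.3%, 7.97%, 1.46%, 2.45% and 2.37% of all windows. No match means only that these letters are not in this window.

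Wt1 signal was high in every blood culture on probe set 1377223_at, which was designed from an expressed sequence tag. Taking rats S4, S5 and S6 in turn, blood values were 9.38, 9.06 and 8.72 and marrow values 5.23, 5.07 and 5.37. All 3 blood arrays lay above the table's median and all 3 marrow arrays below its 25th percentile, with a gap of 3.35 between the lowest blood and the highest marrow value. The paired differences were 4.15, 3.99 and 3.35, with a mean of 3.83 ± 0.42 (SD, n = 3 rats). As a ratio this is 14.2-fold, but the marrow level lies where no background is known. With every value under the 25th percentile raised to it, an alternative added after the data were seen, the mean difference was 2.08, or 4.24-fold.

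The other Wt1 probe set, 1369695_at, was designed from a RefSeq transcript and gave a much narrower difference. For rats S4, S5 and S6 in turn it read 7.42, 7.45 and 7.26 after blood culture, against 6.82, 7.02 and 6.93 for marrow. The groups did not overlap, yet no array of either group reached the table's median. The mean difference was 0.45 ± 0.14 (SD, n = 3), or 1.37-fold. The 2 probe sets had the same sign in all 3 rats, and their differences were apart by 3.55, 3.56 and 3.02. Across the 6 arrays they correlated at r = 0.95, and at r = 0.38 once each group's mean was removed. These correlations describe 6 arrays that share rats and carry no test.

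**Figure D1:**
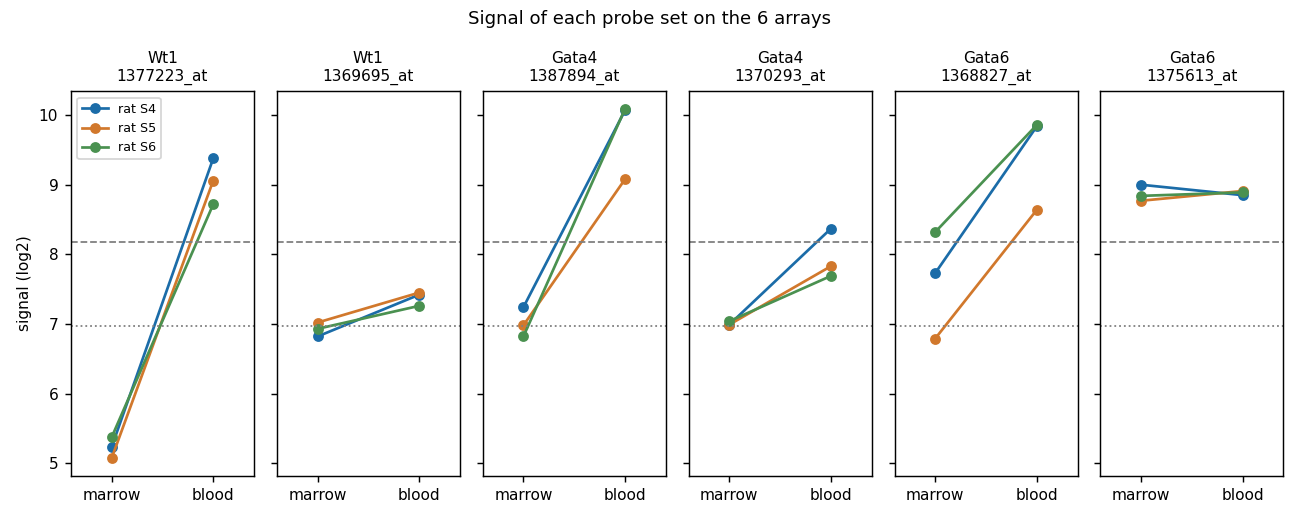
Log2 signal (vertical axis) of the 6 probe sets of Wt1, Gata4 and Gata6 in marrow and blood cultures, 1 panel per probe set, with each rat's pair of cultures joined by a line. The dashed line is the table's median of 8.18 and the dotted line its 25th percentile of 6.97; probe set 1377223_at of Wt1 goes from 5.07 to 5.37 in marrow to 8.72 to 9.38 in blood, and 1375613_at of Gata6 is flat.

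Gata4 was higher in all 3 blood cultures on both of its probe sets, which were designed from the same complementary DNA. On 1387894_at, blood cultures of rats S4, S5 and S6 read 10.07, 9.08 and 10.09 and their marrow cultures 7.24, 6.98 and 6.82. The groups were 1.84 apart at their nearest values, with marrow close to the 25th percentile of the table. Differences were 2.83, 2.10 and 3.27, a mean of 2.73 ± 0.59 (SD, n = 3), or 6.65-fold. The blood culture of rat S5 was the lowest of the 3, by 0.99 from that of rat S4, while the marrow cultures spanned only 0.42.

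The dimmer Gata4 probe set, 1370293_at, gave 8.37, 7.83 and 7.69 in blood, against 6.99, 6.99 and 7.04 in marrow. Marrow values were within 0.05 of each other, and only the blood culture of rat S4 passed the table's median. The mean difference was 0.96 ± 0.38 (SD, n = 3), or 1.94-fold, made of 1.38, 0.84 and 0.65 for the rats taken in the same order. Rat order was thus not shared, as rat S6 had the largest difference on 1387894_at and the smallest here. The probe sets correlated at r = 0.91 over the 6 arrays and at 0.26 with group means removed.

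Gata6 was the member whose probe sets differed in kind. Probe set 1368827_at read 9.84, 8.64 and 9.86 for the blood cultures of rats S4, S5 and S6 and 7.73, 6.79 and 8.32 for marrow. The lowest blood value, in rat S5, was only 0.32 above the highest marrow value, in rat S6, because the cultures of each source spread widely, over 1.22 in blood and 1.53 in marrow. Within rats the differences were much alike, at 2.11, 1.85 and 1.54, with a mean of 1.83 ± 0.29 (SD, n = 3), or 3.56-fold. The SD over rats of the paired difference was thus smaller than the SD of either group, 0.70 in blood and 0.77 in marrow, and rat S5 was low in both of its cultures.

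The other Gata6 probe set, 1375613_at, showed no such difference although its signal lay above the table's median on all 6 arrays. It gave 8.85, 8.91 and 8.89 in blood, against 9.00, 8.77 and 8.84 in marrow, and the groups overlapped. Its paired differences were -0.15, 0.14 and 0.05, with a mean of 0.01 ± 0.15 (SD, n = 3). In marrow rat S5 was lowest on both probe sets, but in blood it was lowest on 1368827_at only, and the pair correlated at r = 0.17 over the 6 arrays. Because it had the higher mean signal of the pair, 8.88 against 8.53, a rule that takes the brightest probe set of a gene reads Gata6 from the flat one. Applied before the filter on signal, that rule also reads Wt1 from its narrower probe set, 1369695_at, at a mean of 7.15 against 7.14.

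**Figure D2:**
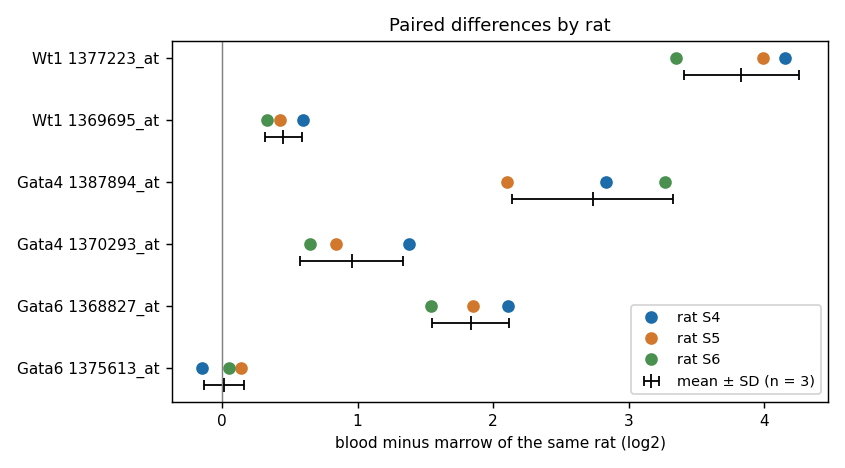
Blood minus marrow difference in log2 units (horizontal axis) for each probe set of Wt1, Gata4 and Gata6, with 1 point per rat and, below the points, the mean and SD over the 3 rats. Each gene has a probe set with a wide difference and a second with a narrower one, and only 1375613_at of Gata6 has rats on both sides of 0.

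In all, 5 of the 6 probe sets had every blood value above every marrow value, where 6.95% of the 15791 probe sets measured on all 6 arrays did. As the genes were chosen on this contrast, nothing is read from that count. Pairs of probe sets disagreed in size by 3.38 for Wt1, 1.78 for Gata4 and 1.82 for Gata6. Among 1477 genes with 2 probe sets the median gap was 0.15. Among the 96 of these with a mean difference of at least 1 on either probe set it was 1.07, and gaps as wide as that of Wt1 were seen in 2 of the 96, as wide as that of Gata4 in 18 and as wide as that of Gata6 in 17. The members' own pairs are among these counts. Where each probe set lies on its transcript is not used here.

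**Figure D3:**
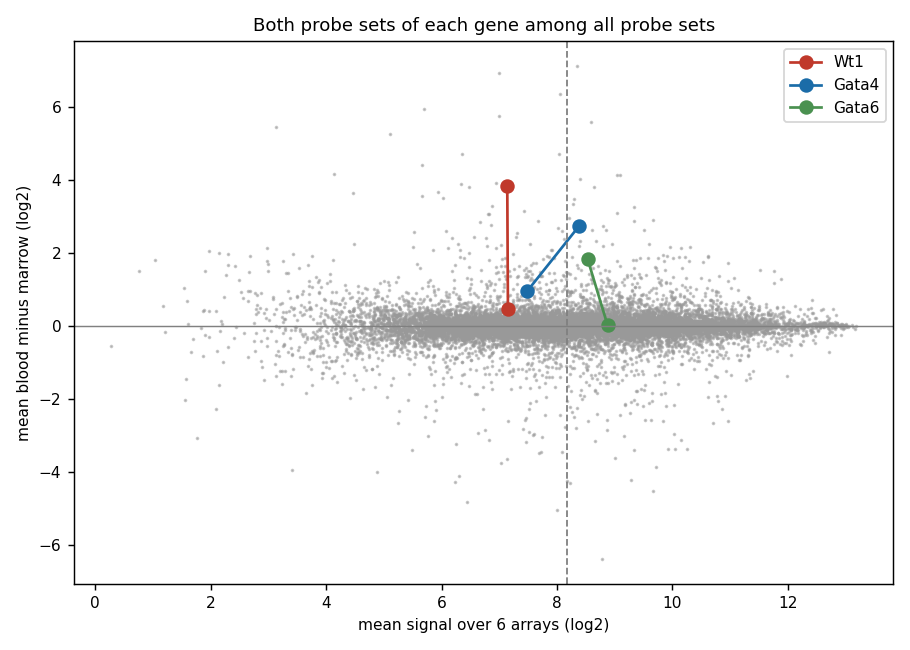
Mean blood minus marrow difference (log2, vertical axis) against mean signal over the 6 arrays (log2, horizontal axis), with a grey point for each probe set measured on all 6 arrays. Coloured points joined by a line are the 2 probe sets of Wt1, Gata4 and Gata6, and the dashed line is the table's median of 8.18; the Wt1 pair has nearly the same mean signal, 7.14 and 7.15, and differences of 3.83 and 0.45.

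The leading probe sets of the 3 genes, those with the widest difference, were high together in blood cultures. Over the 6 arrays Wt1 and Gata4 correlated at r = 0.96, Wt1 and Gata6 at 0.85 and Gata4 and Gata6 at 0.89. Once each group's mean was removed the values were -0.08, 0.29 and 0.57. Gata4 and Gata6 both had their lowest blood value in rat S5, whereas Wt1 had its lowest in rat S6. By paired difference, Wt1 and Gata6 were both highest in rat S4 and lowest in rat S6. These are descriptions over 6 arrays of 3 rats, and the choice of the genes sets the first of them.

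Ranked by Pearson's r with the leading Wt1 probe set over the 6 arrays, the nearest genes were Rpp25, a ribonuclease P subunit, Kiaa1671, Stxbp2, a syntaxin-binding protein of vesicle release, Bmp6, a bone morphogenetic protein, and Efnb1, the ephrin-B1 ligand, with r from 0.987 to 0.998. Rpp25 was close in size too, at 8.53 ± 0.24 in blood against 5.23 ± 0.22 in marrow (SD, n = 3). Stxbp2 had the same shape at a mean difference of only 0.39, since r ignores size. For Gata4 they were Ppm1f, a protein phosphatase, Pxdc1, Col4a5, a basement membrane collagen IV chain, Skil, a repressor of SMAD signalling, and Aard, with r from 0.993 to 0.995. Aard, at 9.39 ± 0.54 and 6.80 ± 0.06, had differences of 2.63, 1.98 and 3.16, in the same rat order as Gata4. For Gata6 they were Pcsk6, a proprotein convertase, Nucb2, Tmem63a, Pawr, a binding partner of WT1, and Saraf, with r from 0.983 to 0.993. Pcsk6 averaged 9.31 ± 0.68 in blood against 6.92 ± 0.98 in marrow and, like Gata6, was low in rat S5. Among kept probe sets with a gene symbol, 38 of 6485 had r above 0.95 with Wt1, 61 of 6485 with Gata4 and 65 of 6484 with Gata6. Because the neighbours were ranked on these same 6 arrays, a shared rat order or low rat is favoured by the choice itself.

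**Figure D4:**
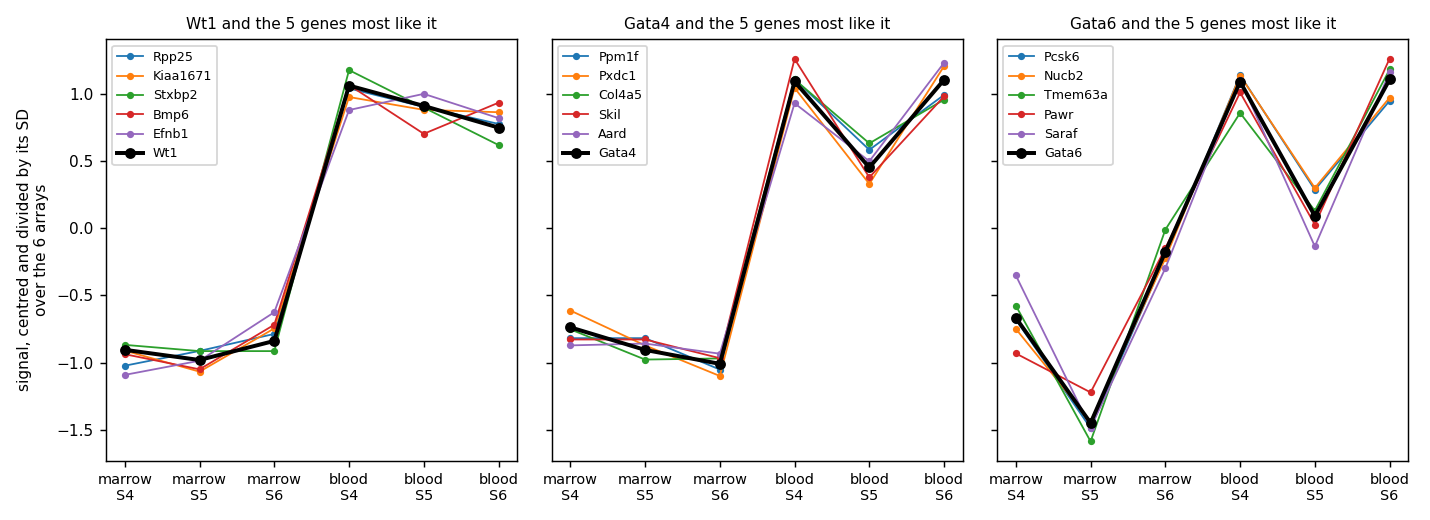
Signal of the leading probe set of Wt1, Gata4 and Gata6 (black) and of the 5 genes with the highest Pearson's r to each (colours), on the 6 arrays (horizontal axis), centred and divided by its SD so that only the shape is compared. Lines only join the points of a gene. Gata4 and Gata6 and their neighbours dip in the blood culture of rat S5, and among Wt1 and its neighbours only Bmp6 does. The neighbours were picked for a like shape on these same arrays, so nothing is read from the shared shape.

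The other genes around these factors were read from lists of partners, reported targets and tissue markers. Each was tested in the limma fit that accounts for the rat, adjusted over 7625 probe sets. Taking the brightest tested probe set of each gene, 75 of 5753 genes (1.3%) rose and 99 (1.72%) fell in blood cultures, 3.02% in all. These shares are given beside the list counts. The lists were drawn up with earlier results of these data known, so no excess over the shares is read from a list. In the list of other GATA family genes only Gatad1 and Gatad2a were tested. Both encode subunits of chromatin repressor complexes and are not GATA factors like Gata4 and Gata6. Gatad1 and Gatad2a did not pass in limma (0 at an unadjusted p under 0.05). They differed by 0.17 ± 0.13 and 0.01 ± 0.15 (SE). The blood-lineage factors Gata2 and Gata3 and the cardiac and gut factor Gata5 stayed below the table's median in both groups. Gata2 was at 7.68 ± 0.28 in blood against 7.65 ± 0.20 in marrow, Gata3 at 6.80 ± 0.11 and 6.81 ± 0.21, and Gata5 at 6.49 ± 0.12 and 6.66 ± 0.11 (SD, n = 3). Gata1, the erythroid factor, was dim in both groups, at 6.93 ± 0.24 and 5.42 ± 0.37. It was not called by limma run on all probe sets (1.51 ± 0.19 SE, adjusted p = 0.0743). The blood minus marrow differences of Gata2, Gata3 and Gata5 were 0.03, -0.0033 and -0.17.

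Of the partners and cofactors, 13 of 32 genes were tested, and 1 rose, 0 fell and 12 did not pass; the median difference was -0.08. The gene that rose was Pawr, which encodes the WT1-binding protein PAR-4. It read 10.69, 9.91 and 10.89 in blood, against 9.15, 8.92 and 9.77 in marrow, without overlap of the groups. Its difference was 1.22 ± 0.15 (SE), or 2.32-fold (adjusted p = 0.0134). Hand2, a partner of GATA4 in heart and mesenchyme, had differences of 1.43, 0.57 and 0.22 across the rats and missed the threshold (0.74 ± 0.24 SE, adjusted p = 0.21). It was low in both cultures of rat S5, at 8.98 in blood and 8.41 in marrow. Basp1, a WT1 corepressor, was bright at 11.28 ± 0.25 and 10.91 ± 0.29 (SD, n = 3) and did not pass. Zfpm1, a GATA cofactor, lay below the median at 7.77 ± 0.16 and 7.39 ± 0.09 on its brighter probe set. The platform annotation names no probe set for Zfpm2 or for the T-box genes Tbx18 and Tbx20.

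Of genes reported as WT1 targets in other tissues, 14 of 38 were tested, and 2 rose, 1 fell and 11 did not pass; the median difference was 0.10. Wnt4, a Wnt ligand of kidney and gonad formation, read 8.56, 8.52 and 8.24 in blood, against 6.85, 7.37 and 6.70 in marrow. It rose by 1.47 ± 0.15 (SE), or 2.76-fold (adjusted p = 0.00712). Wnt4 passed the filter through its blood arrays alone, so the filter drew on the contrast that was tested. Limma run on all probe sets did not call it (adjusted p = 0.052). Ccnd2, the cell cycle gene of cyclin D2, read 11.24, 10.67 and 11.62 in blood, against 9.83, 8.67 and 9.73 in marrow, with the lowest value of each group in rat S5. It rose by 1.77 ± 0.15, or 3.40-fold (adjusted p = 0.00413). Snai1, a repressor of epithelial genes, read 9.62, 10.31 and 9.42 in blood, against 11.25, 11.18 and 10.43 in marrow, and differed by -1.17 ± 0.18 (adjusted p = 0.0281). It is reported as activated by WT1 in the epicardium, and it fell here. Podxl, a podocyte surface protein, stayed below the median on 3 probe sets, the brightest at 7.35 ± 0.16 and 7.18 ± 0.07 (SD, n = 3).

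Of genes reported as targets of GATA4 or GATA6, 20 of 48 were tested, and 1 rose, 1 fell and 18 did not pass; the median difference was 0.23. Ccnd2, which also stands in the WT1 list, was the gene that rose. Dab2, an endocytic adaptor reported downstream of GATA6, read 10.72, 11.20 and 10.19 in blood, against 11.81, 11.74 and 11.37 in marrow. It differed by -0.94 ± 0.16 (SE, adjusted p = 0.0428). Bmp4, a morphogen of the lateral mesoderm, differed by 0.49 and 0.88 in rats S4 and S6 and by -2.16 in rat S5, and did not pass (adjusted p = 0.909). Of heart genes in these lists, the homeobox gene Nkx2-5 was at 9.87 ± 0.19 in blood and 9.98 ± 0.12 in marrow, and Nppb, a natriuretic peptide, at 8.95 ± 0.31 and 8.68 ± 0.12 (SD, n = 3), and neither passed.

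Of markers of mesothelium, epicardium and visceral mesoderm other than the 3 members, 6 of 37 were tested; 0 rose, 2 fell and 4 did not pass, with a median difference of -0.27. Msln, the mesothelial surface protein mesothelin, read 8.69, 8.23 and 9.08 in blood, against 9.98, 9.45 and 10.29 in marrow, and differed by -1.24 ± 0.12 (SE, adjusted p = 0.00548). Nr2f2, a nuclear receptor of mesenchyme and veins, stood at 9.30 ± 0.14 and 10.29 ± 0.08 (SD, n = 3) and differed by -0.99 ± 0.12 (SE, adjusted p = 0.0117). The epithelial keratins of mesothelium lay below the median on every array. Krt8 was at 7.31 ± 0.26 and 7.22 ± 0.23, Krt18 at 6.13 ± 0.22 and 6.13 ± 0.17, and Krt19 at 6.33 ± 0.04 and 6.19 ± 0.07 (SD, n = 3). Tcf21, an epicardial factor, was at 6.80 ± 0.05 and 6.72 ± 0.07, and Foxf1, a factor of visceral mesenchyme, at 8.08 ± 0.27 and 8.13 ± 0.28. None of the 6 tested markers passed as higher in blood cultures (3 at an unadjusted p under 0.05 in limma, in either direction). Of the 6, 2 had a mean difference above 0, and Hand2 was higher in blood by 1.43, 0.57 and 0.22 in the 3 rats. The filter on signal left out 16 genes of this list, among them Aldh1a2, Tbx5 and Gpm6a, which are described further below. Hoxa5, also left out and named after its values were seen, went the other way. Its blood minus marrow values, rat by rat, were -1.75, -0.37 and -1.17.

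**Figure D5:**
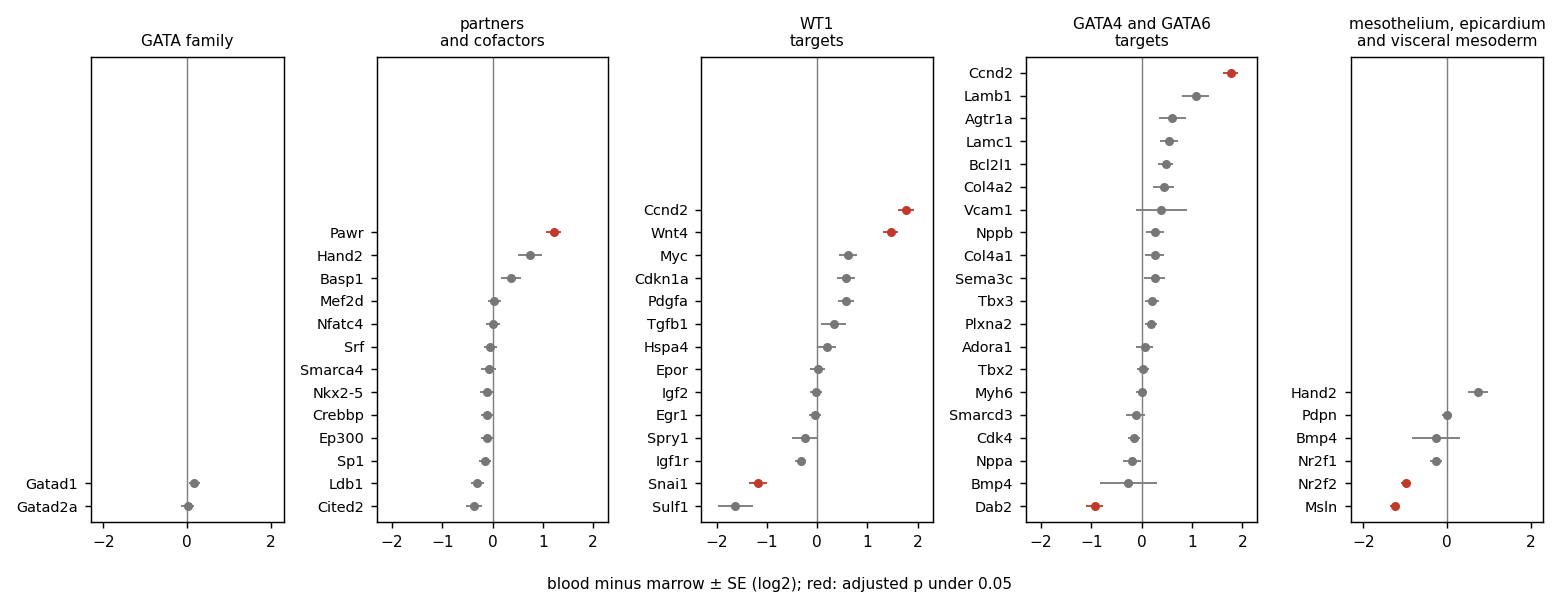
Blood minus marrow difference ± SE (log2, horizontal axis) of each tested gene in 5 lists around Wt1, Gata4 and Gata6, on its brightest tested probe set, with red points for an adjusted p under 0.05 in limma and grey points for the rest. Red on the right are Pawr, Wnt4 and Ccnd2, red on the left Snai1, Dab2, Nr2f2 and Msln, and most genes lie within 1 of 0.

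Leaving out a rat changed these calls: without rat S4 none of the 7625 probe sets passed in limma (774 at an unadjusted p under 0.05), and without rat S6 no gene of the 5 lists did. Without the rat as a term, Wnt4 and Nr2f2 still passed, and Pawr, Ccnd2, Snai1, Dab2 and Msln did not, with adjusted p of 0.131, 0.075, 0.131, 0.158 and 0.0954. Over 11 alternative settings of the fit Dab2 passed in 2 and Snai1 in 5, the others in 6 to 8, and Snai1 and Dab2 were not called under either rescaling of the arrays.

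Some listed genes that the filter on signal left out had their lowest blood value in rat S5. Aldh1a2, the retinoic acid synthesis enzyme of epicardium and mesothelium, read 9.84, 6.35 and 10.82 in blood, against 5.94, 6.00 and 5.59 in marrow, for rats S4, S5 and S6. Its differences were 3.90, 0.35 and 5.23, and limma run on all probe sets did not call it (3.16 ± 0.94 SE, adjusted p = 0.325). Foxa2, a factor of endoderm, picked after its values were seen, had the same layout, at 9.26, 6.29 and 9.18 in blood, against 5.43, 5.43 and 5.55 in marrow. Gpm6a, a membrane glycoprotein of mesothelium, and Tbx5, a T-box partner of GATA4, were picked likewise. Gpm6a read 7.93, 6.61 and 8.61 in blood against 6.02 to 6.38 in marrow, and Tbx5 7.99, 6.03 and 7.52 in blood against 4.14, 4.76 and 6.25 in marrow. In each of these 4 genes, most of them picked for this layout, the blood culture of rat S5 was the lowest, as it was for Gata4 on 1387894_at and Gata6 on 1368827_at, but not for Wt1 on 1377223_at, where it lay between the others. Some other listed genes below the filter fell in blood cultures, and these too are named after their values were seen. Mean differences were -1.10 for Hoxa5, -1.23 for Nes, -1.87 for Tnnc1 and -1.18 for Mef2c on its brighter probe set. For Hoxa5 the blood culture of rat S5 was the highest, at 7.54 against 5.73 and 5.72.

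Markers of organs in which these factors act varied in signal. None of 9 endoderm and liver genes and none of 7 gonad and adrenal genes on the array passed the filter on signal. Foxa2 of the endoderm list exceeded the median only in the blood cultures of rats S4 and S6, at 9.26 and 9.18. Of 4 podocyte genes 1 was tested, Synpo, an actin-linked protein, at 1.02 ± 0.20 (SE, adjusted p = 0.0628), and of 7 endothelial genes 1. Synpo read 10.63, 9.86 and 11.24 in blood, against 9.80, 9.21 and 9.67 in marrow. The other podocyte genes, Nphs1, Podxl and Ptpro, lay below the table's median on every array. Of 10 cardiac muscle genes 4 were tested and none passed in limma (0 at an unadjusted p under 0.05). Myh6, a cardiac myosin heavy chain picked after its values were seen, read a mean of 10.69 in both groups on its brighter probe set and lay below the table's median on the other. Summed linear signal was 1238 to 1666 in blood and 922 to 1054 in marrow cultures for the endoderm list, which includes Foxa2, and 1403 to 2878 against 1058 to 1326 for the podocyte list, which includes Synpo. For the gonad list it was 751.6 to 845.7 against 721.3 to 751.7, for the cardiac list 3863 to 4543 against 3622 to 4334, where the marrow array of rat S6 has no value for Nppa, the atrial natriuretic peptide, and for the endothelial list 1126 to 1251 against 974.5 to 1275. No gene of these lists was at 0 on its brightest probe set, and the part of these cell types in the members' values was not tested.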

How the data were processed

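The authors deposited 1 table of probe set values for 6 arrays, read here as log2 signal because it runs from 0 to 13.31; the base, summarisation and normalization are not stated in the labels used, and the submitters' processing notes name GCOS alone. Folds depend on that base. Values were used as deposited, with 86 empty cells left empty. After removing 57 control probe sets, 7625 of 15866 were kept, those whose 3 arrays of either source all exceeded the table median, 8.18. Both sources were fitted in limma 3.58.1 under R 4.3.3 (lmFit, eBayes, two-sided, Benjamini-Hochberg over the kept probe sets, threshold 0.05), with a term for the rat, since the design text pairs cultures by animal. As a check, the correlation between the blood and marrow array of a rat, group means removed, was -0.25 in S4, 0.31 in S5 and 0.31 in S6. P-values below the filter come from a fit without it. Symbols come from the platform annotation: 12789 probe sets had 1 symbol and 312 several, which were not named.

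Members and lists were chosen with earlier results of these data known. Named were all probe sets of the 3 members, up to 4 called genes per list and direction, a set of GATA, partner and mesothelial genes, the 5 genes most like each member by Pearson's r over the 6 arrays, and the brightest genes of the marker lists; not all are named in the text. The fit was also run on simulated arrays that had no rat effect and changes wider than those of the called list genes. No support for the calls is drawn from that run. The number of arrays limits the precision. Instrument files were read only for station, module and scan order. Alternatives were 3 scalings, other filters, no rat term, the station in place of the rat, each rat left out, and a floor. Python 3.11.15 (matplotlib 3.10.9, pandas 2.3.3, numpy 2.4.6) drew the figures.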

Additional observations from a re-analysis of the deposited data

How the results depend on the processing

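Scaling to a common trimmed mean, quantile normalization and leaving out any rat kept the sign of 5 of the 6 member probe sets and moved each mean by less than its SD over rats. An offset of 50 on the linear scale lowered the means of all 6, but only that of 1377223_at of Wt1 by more than its SD over rats, to 2.73. A floor at the 25th percentile also moved it by more than that SD, to 2.08. Without each rat in turn the means ranged from 3.67 to 4.07 and 0.38 to 0.52 for Wt1, 2.46 to 3.05 and 0.74 to 1.11 for Gata4, and 1.70 to 1.98 and -0.05 to 0.10 for Gata6.

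Over all probe sets, 239 calls became 143 with a common trimmed mean, 137 with quantile normalization, 82 with no filter, 144 with no replicate block and 151 with the station in place of the rat; without each rat in turn they ran from 0 to 422. Calls among partners went from 1 to 0 with no filter, no replicate block or the station, and ran from 0 to 1 without each rat. WT1 target calls went from 3 to 2 with a common trimmed mean, quantile normalization or the station. They went to 1 with no filter or no replicate block (0 to 4 without each rat). GATA4 and GATA6 target calls went from 2 to 1 under both scalings and with no filter, a filter at the 25th percentile or one asking for any 3 of the 6 arrays, an alternative added after the data were seen. They went to 0 with no replicate block or the station (0 to 3 without each rat). Mesothelial and visceral calls went from 2 to 1 with no filter or no replicate block (0 to 2 without each rat). The cause of these changes was not tested. The count of the GATA family list stayed at 0, and in the main fit it rests on Gatad1 and Gatad2a, which are not GATA factors. Signal near or below the 25th percentile limits the folds of Wt1 and Gata4.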
